A study of Mus musculus with 20 samples.

Results

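The fecal bacteria of mice that received no chemotherapy were compared between 2 batches of animals, E53B and E56A. The 10 control samples of the series, picked by the treatment and batch that their labels give, were used: 5 mice of batch E53B, numbered 36 to 40, and 5 mice of batch E56A, numbered 41 and 47 to 50. They are 10 of 20 samples. The other 10 came from FO mice of the same batches, which were given oxaliplatin and 5-fluorouracil, and they entered where a batch difference was looked at again in other animals and in an alternative fit over all 20 samples. All mice were female C57BL/6 from one supplier, 8 to 14 weeks old and co-housed before the experiment. Controls received no drug but were handled in the same way: the labels name PBS or water, and the study describes the stool controls as PBS-treated. One fecal sample per mouse was taken on day 5. Cage, date of experiment and batch cannot be told apart, and the p-values below measure the spread between mice within these batches.

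The 16S rRNA gene is carried by every bacterium, and reading its V4 stretch assigns each sequence to a taxon. Values are shares of the reads of a mouse, so a higher share of a taxon cannot be told apart from a lower amount of the others. In laboratory mice the colon is typically dominated by Muribaculaceae, a family of Bacteroidales that degrades plant and host glycans. Alongside them live Clostridia such as Lachnospiraceae and Oscillospiraceae, which ferment fibre, mucus sugars and amino acids to short-chain fatty acids. Several minor members, among them *Turicibacter* and *Akkermansia*, are known to be present in some mouse colonies and scarce in others. Names such as CAG-873 or UBA7173 are placeholders of the reference taxonomy for genera known mainly from assembled genomes, and a suffix such as that of Bacteroides_H marks a split of an older genus.

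Total reads ran from 36797 to 46398 in E53B and from 37692 to 57415 in E56A. The mean total did not differ beyond the spread between mice (difference 6622 reads, two-sided exact permutation test, p = 0.143, n = 5 per batch). Without mouse 49, which had the fewest reads of E56A, the difference was 9554 reads (exact permutation p = 0.0317). A taxon with 0 reads could still hold 3 reads, a limit between 0.00523% and 0.00815% of a mouse's total. This limit and the confidence intervals cover counting error only. The closest pair, mice 48 and 49, gave 6.51 for chi-square over degrees of freedom in their genus counts, which is above counting noise. Repeat libraries of one sample could also exceed counting noise, and that the 10 samples are separate mice comes from the labels and the methods.

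A small number of Bacteroidales genera made up most of every community. CAG-873 held 38.5% ± 8.9 (SD, n = 10) of reads and UBA7173, also of Muribaculaceae, held 23.7% ± 7.83. Together they made up 45.3% to 69.3% of a mouse's reads, and the top 15 genus entries made up 91.6% to 97.9%. In 9 of 10 mice the 2 largest genera reached 50% of all reads, and in mouse 50 CAG-873 alone did so. In mouse 41 these 2 genera were CAG-873 and Bacteroides_H. Between 6 and 13 genus entries covered 90% of a mouse's reads.

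By phylum, Bacteroidota accounted for 86.2% ± 4.37 (SD, n = 10) and Firmicutes_A, the phylum of the Clostridia, for 12.1% ± 3.96. Desulfobacterota_I followed at 0.54%, Firmicutes_B_370539 at 0.507%, Firmicutes_D at 0.344% and Deferribacterota at 0.166%. Verrucomicrobiota averaged 0.106%, but this was mouse 41 alone, at 0.992%, with at most 0.0129% in the other 9 mice and a median of 0.00749%. Among families, Muribaculaceae held 78.9% ± 5.61, ahead of Lachnospiraceae at 6.98% ± 2.36, Bacteroidaceae at 5.88% ± 4.53 and Oscillospiraceae_88309 at 3.28% ± 1.48. Rikenellaceae (1.35%), Borkfalkiaceae (0.774%), Desulfovibrionaceae (0.54%), Dehalobacteriaceae (0.495%), Ruminococcaceae (0.257%) and Turicibacteraceae (0.228%) completed the 10 largest. The place of Turicibacteraceae rested on mouse 41, at 1.38%, its median over mice being 0.0861%, and the Firmicutes_D mean likewise exceeded its median of 0.199%. These 10 families together held 98.7% ± 0.602 of reads.

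Behind CAG-873 and UBA7173 came Bacteroides_H at 5.87% ± 4.53 and *Duncaniella*, a cultured genus of Muribaculaceae, at 5.65% ± 1.28. UBA3263 followed at 4.2% ± 1.35 and UBA3282, a Lachnospiraceae genus, at 2.53% ± 1.08. The mean of Bacteroides_H was raised by mouse 41, at 17.8%. In E53B its mean of 3.85% was below those of *Duncaniella* (5.68%) and UBA3263 (5.16%). CAG-485 had a mean share of 1.93%, the Lachnospiraceae genus CAG-95 1.88%, *Paramuribaculum* 1.66%, *Muribaculum* 1.52%, *Alistipes_A_871400* 1.35% and *Dysosmobacter* 1.33%. The remaining entries of the top 15 were reads with no named genus, in Muribaculaceae (1.67%), Lachnospiraceae (1.19%) and Oscillospiraceae_88309 (0.905%). Over the whole table, reads unassigned at the genus rank made up 3.07% ± 1.27, and a further 1.56% ± 0.749 fell in genera with a blank name.

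At the species level CAG-873 and UBA7173 were each almost a single entry. CAG-873 sp011959565 held 38.5% and UBA7173 sp002491305 held 23.7% of reads. UBA3263 sp001689615 (4.2%), *B. rodentium* (3.77%), *D. dubosii* (2.57%), UBA3282 sp003611805 (2.51%), *D. muris* (2.22%), CAG-95 sp000403495 (1.76%), *P. intestinale* (1.66%), *B. acidifaciens* (1.4%) and *M. intestinale* (1.3%) followed, with Muribaculaceae reads of no species at 1.67%. V4 is a short stretch, and species that share it cannot be separated.

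**Figure D1:**
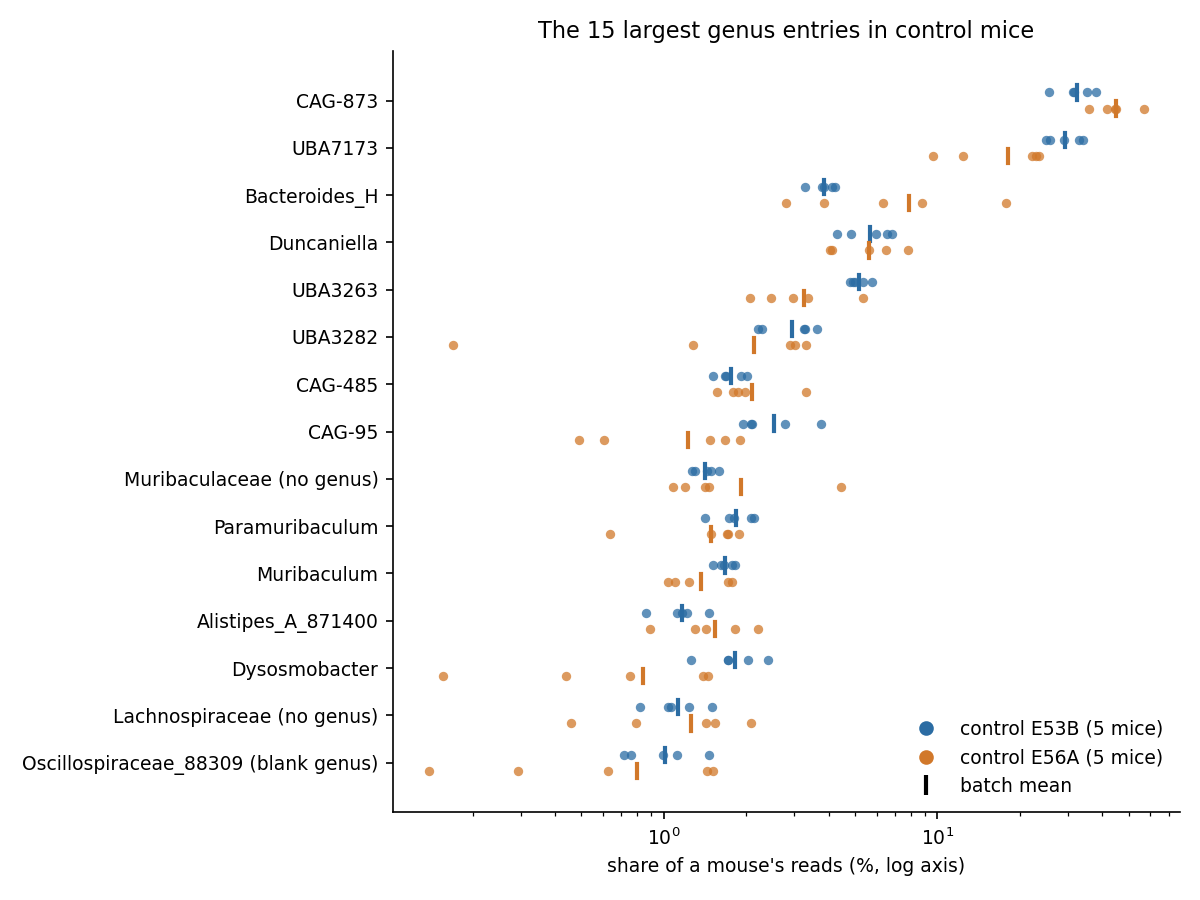
Share of reads (percent, log axis) of the 15 largest genus entries in each control mouse, with 1 point per mouse and a bar at the mean of the 5 mice of each batch. E53B mice lie close together in most rows, whereas E56A mice spread further, as for UBA3282, which ran from 0.169% to 3.31% in E56A.

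A large core was shared by all animals. Of 142 genus entries with a read in any control mouse, 47 had a read in all 10, and these held 97.5% to 99.4% of each mouse's reads. Of 194 species entries, 54 were found in all 10 mice, and 32 in a single mouse. The core comprised all 8 Muribaculaceae genus entries, 13 of Lachnospirales, 13 of Oscillospirales, 3 of Christensenellales and 3 of other Bacteroidales. Low-abundance bacteria with special habits belonged to it too: *Bilophila*, which uses sulfite from taurine, *Mucispirillum*, which lives in the mucus layer, and *Akkermansia*, which degrades mucin. None of the 14 genus entries of Bacilli detected in controls was seen in every mouse.

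The core depended on what counts as present. Requiring more than 3 reads in every mouse gave 37 genera, and requiring a share of at least 0.1% gave 17. *Akkermansia* illustrates this, since it had 2 to 6 reads in each E53B mouse. Batch E53B alone had 63 genera in all 5 of its mice and batch E56A 54.

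Diversity within a mouse was next compared between the batches. The Shannon index, a measure of both the number of entries and their evenness, was 2.46, 2.43, 2.31, 2.42 and 2.27 in E53B mice 36 to 40. In E56A it was 2.62 in mouse 41, 2.13 in mouse 47, 2.3 in mouse 48, 2.16 in mouse 49 and 1.79 in mouse 50. The E56A mice included both the highest and the lowest value of all controls. The batch means of 2.38 ± 0.0824 and 2.2 ± 0.298 (SD, n = 5) did not differ beyond this spread (difference of -0.18 for E56A minus E53B, two-sided exact permutation test, p = 0.286). Mouse 41 decided this outcome: without it the difference was -0.28 (exact permutation p = 0.0159).

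Numbers of species entries, counted after all mice were drawn down to 36797 reads, were 121.1, 128.3, 119.2, 122 and 103.8 in E53B mice 36 to 40. They were 117.7, 116.6, 124, 106.96 and 86 in E56A mice 41, 47, 48, 49 and 50. Mouse 50 had the fewest, and the batches overlapped widely (difference -8.64, two-sided exact permutation test, p = 0.317, n = 5 per batch). Without mouse 50 the difference was -2.58, and over all mice left out in turn it reached -12.4. The variation among mice lay in the Clostridia, with 53.4 to 95.4 entries per mouse, while Muribaculaceae had between 13 and 15 entries in every mouse. Pielou evenness was 0.498 ± 0.0118 in E53B and 0.468 ± 0.0533 in E56A (SD, n = 5; difference -0.03, exact permutation test, p = 0.278), and here too the difference without mouse 41, -0.0504, passed the test (exact permutation p = 0.00794).

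**Figure D2:**
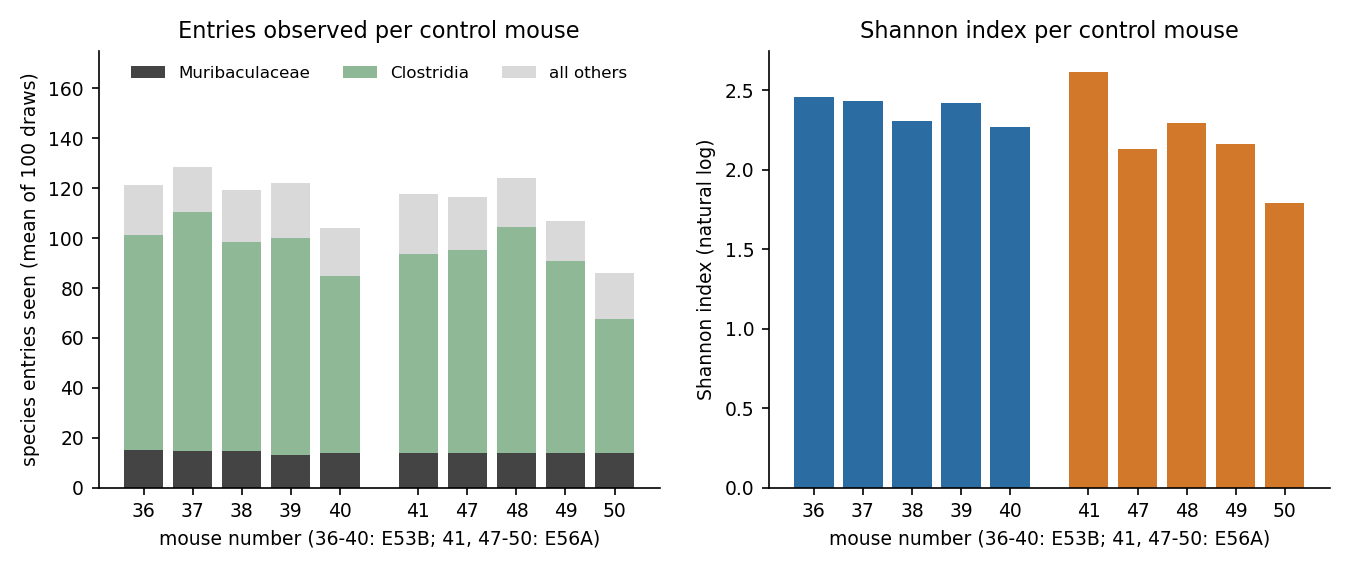
Left, number of species entries seen in each control mouse after drawing down to equal reads (mean of 100 draws), stacked by Muribaculaceae, Clostridia and all others. Right, Shannon index (natural log) of the same mice, coloured by batch. The Muribaculaceae segment is nearly constant, and mouse 50 has the shortest Clostridia segment, at 53.4 entries, and the lowest Shannon index, at 1.79.

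Although diversity overlapped, the composition of the communities separated by batch. With Bray-Curtis distances between the species-level proportions, the R2 of batch was 0.398 (permutational analysis of variance on distances, all splits, exact permutation p = 0.00794, the smallest value that 5 against 5 mice allow). R2 is the fraction of the summed squared distances that lies between the batches. Leaving out any 1 mouse gave R2 from 0.34 to 0.535. In 9 of 10 mice the nearest other control came from the same batch, the exception being mouse 41, whose nearest neighbour was E53B mouse 39 at a distance of 0.248. The separation was also present with Jaccard distances of presence alone (R2 = 0.203, exact permutation p = 0.00794), and with the Aitchison distance of log ratios (R2 = 0.227, p = 0.00794). It was not detected with families as the unit (R2 = 0.16, exact permutation p = 0.183).

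Parts of the community were then compared separately. When the entries of Muribaculaceae alone were rescaled to their own total, the R2 of batch was 0.601 (n = 5 per batch). CAG-873 and UBA7173 held 62.3% of reads on average, of the 78.9% held by the family. Their opposite shares, given below, therefore nearly fixed this value, and no p is given for it. Entries outside the family gave R2 = 0.299 (exact permutation p = 0.0714), and Clostridia alone R2 = 0.21 (p = 0.0635). Without mouse 50 the Clostridia gave R2 = 0.217 (exact permutation p = 0.0238). Entries outside Muribaculaceae gave 0.269 without mouse 41 (exact permutation p = 0.0238) and 0.261 without mouse 50 (p = 0.0476). These subdivisions were chosen after the data were seen. In FO mice the order was another: Muribaculaceae alone gave R2 = 0.218 (exact permutation p = 0.0635), entries outside the family 0.277 (p = 0.00794) and Clostridia 0.245 (p = 0.0397).

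Mice of E53B were alike, whereas those of E56A were not. Distances between E53B mice ran from 0.0638 to 0.154 with a median of 0.108. Those between E56A mice ran from 0.048 to 0.314 with a median of 0.256, above the median of 0.212 between mice of different batches. The distance to the batch centroid was 0.0694 ± 0.0167 in E53B and 0.136 ± 0.0584 in E56A (SD, n = 5; difference 0.0671, two-sided exact permutation test, p = 0.0159). The test on distances responds to such unequal spread as well as to a shift of the centre. Mice 41 and 50 lay farthest from their centroid, at 0.217 and 0.179. They were picked after these distances were seen, so a narrower E56A spread without them follows from the choice. Without mouse 41 the difference was 0.0305 (exact permutation p = 0.246). Without mice 41 and 50 it was -0.0195, and no p is given for this value. Leaving out any 1 of mice 37 to 40 raised the p to between 0.0556 and 0.0794. The R2 of batch without mice 41 and 50 was 0.56, again with no p because of how these mice were picked. Mice 47, 48 and 49 lay 0.048 to 0.109 apart and 0.11 to 0.26 from E53B mice.

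**Figure D3:**
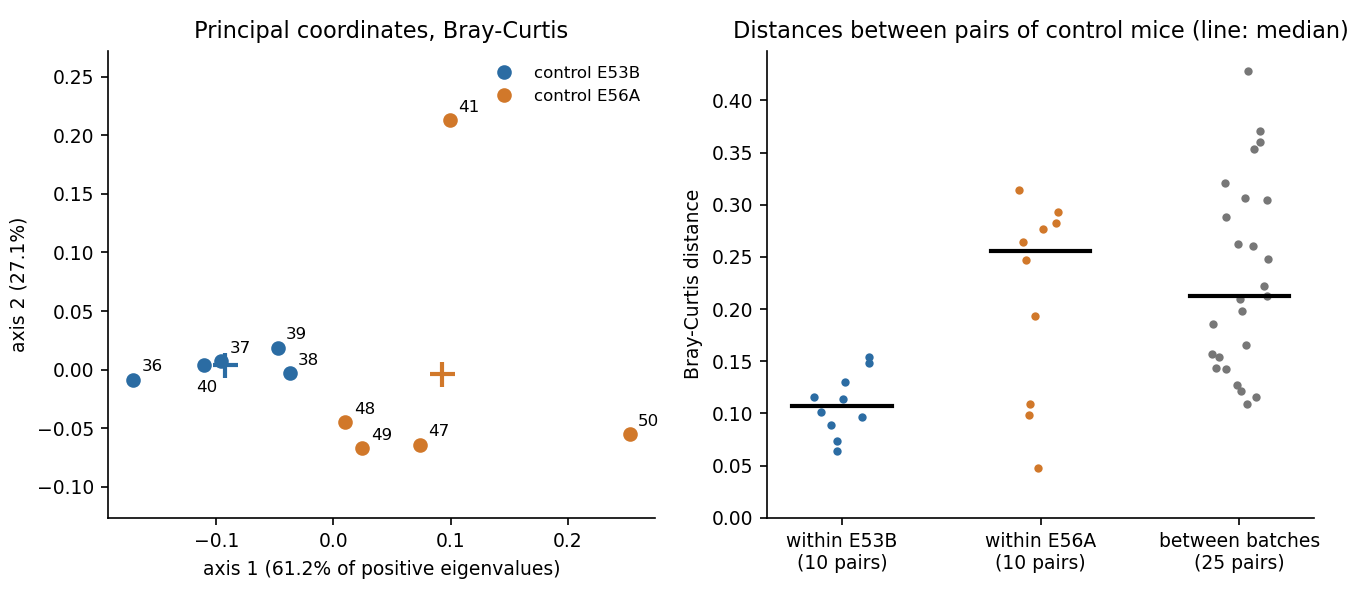
Left, principal coordinates of Bray-Curtis distances among the 10 control mice (numbers are mice, plus signs batch means; axis percentages of positive eigenvalues). Right, the distance of every pair of mice, with a line at the median: 0.108 within E53B, 0.256 within E56A and 0.212 between batches. Mice 41 and 50 stand apart from the other 3 E56A mice.

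Of the mean Bray-Curtis distance between mice of different batches, 28.9% came from CAG-873, 25.5% from UBA7173 and 10.3% from Bacteroides_H. These parts follow abundance, CAG-873 and UBA7173 holding 62.3% of reads together, and include the spread among mice of one batch. CAG-873 held 25.6%, 31.5%, 37.9%, 35.2% and 31.3% of reads in E53B mice 36 to 40. In E56A it held 35.7%, 44.6%, 41.7%, 45% and 56.9% in mice 41, 47, 48, 49 and 50. Mouse 41 was the only E56A mouse within the range of E53B.

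UBA7173 showed the opposite order. It held 34.1%, 28.9%, 25.8%, 25% and 32.8% in E53B mice 36 to 40 and 9.61%, 22.1%, 23.5%, 23% and 12.4% in E56A mice 41, 47, 48, 49 and 50. All E56A mice lay below all E53B mice. The batches did not overlap in 6 of the 76 genus entries that averaged 0.01% or more (7.89%). UBA7173, CAG-95, *Ventrisoma* and *Dubosiella* were lower in every E56A mouse (4 entries, 5.26%), and *Turicibacter* and an unnamed genus of Lachnospirales were higher (2 entries, 2.63%).

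Neither genus passed a test adjusted over all genera. In edgeR's quasi-likelihood test, which scales libraries by the typical genus, CAG-873 had a log2 difference of 0.90 ± 0.39 (SE; Benjamini-Hochberg adjusted p = 0.243) and UBA7173 of -0.42 ± 0.33 (adjusted p = 0.398). Single mice weighed on both values: CAG-873 was at 0.36 without mouse 50, and UBA7173 at -0.20 without mouse 41 and -0.60 without mouse 50. The exact permutation test of shares gave adjusted p = 0.101 for UBA7173. The sum of both genera was 61.6% ± 2.11 in E53B and 62.9% ± 9.94 in E56A (SD, n = 5; exact permutation p = 0.881). Their ratio, examined after the shares had been seen, was 0.752 to 1.47 in E53B and 1.77 to 4.57 in E56A, a mean log2 difference of 1.24. No p is given, since the shares that prompted the ratio nearly fixed this separation.

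*Turicibacter*, a spore-forming genus of Bacilli that colonizes the small intestine, was scarce in E53B and present in every E56A mouse. It had 4, 0, 0, 8 and 0 reads in E53B mice 36 to 40 and 617, 158, 79, 58 and 158 reads in E56A mice 41, 47, 48, 49 and 50. The groups did not overlap, with a highest share of 0.0217% in E53B and a lowest of 0.151% in E56A. Mouse 41 stood out at 1.38% (95% Wilson interval 1.28% to 1.5%).

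Mean shares of *Turicibacter* were 0.00607% in E53B and 0.45% in E56A, where the 4 mice other than mouse 41 held 0.151% to 0.287%. The E53B mean was below the limit of 3 reads per library, which averaged 0.00706% in E53B. *Turicibacter* was the only genus past the 5% false discovery rate in edgeR, 1 of 51 tested (1.96%), while 9 had an unadjusted p under 0.05 (17.6%). It passed the filter on low counts only through E56A, so it was bound to differ, and the call adds nothing to the reads given above. The fitted log2 difference of 6.44 ± 1.09 (SE; edgeR adjusted p = 0.0022) is not an exact fold, since 3 of 5 E53B mice had 0 reads. Exact permutation of shares, whose smallest p is large for so many genera, gave adjusted p = 0.101. All its reads fell in 1 unnamed species entry. At higher ranks it was the only family called, 1 of 22 tested (4.55%), and its phylum, Firmicutes_D, held 0.112% ± 0.0596 in E53B and 0.576% ± 0.579 in E56A (SD, n = 5; 0.21% to 0.415% in the E56A mice other than 41; exact permutation p = 0.00794, adjusted p = 0.0714 over phyla, and 2 phyla called without mouse 41). None of 9 phyla (0%) and none of 18 orders (0%) passed, with 1 phylum (11.1%) and 2 orders (11.1%) at an unadjusted p under 0.05 in the exact permutation test. Since the smallest exact p is 0.00794, a phylum or order that separated alone could not pass. Its adjusted p would be 0.0714 among the phyla and 0.143 among the orders. On a centred log ratio scale 2 phyla passed, Firmicutes_D (log2 difference 2.32, adjusted p = 0.0357, exact permutation) and Deferribacterota (log2 difference -0.75, adjusted p = 0.0357). On log2 of shares neither passed (exact permutation adjusted p = 0.0714 for Firmicutes_D and 0.262 for Deferribacterota).

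Of 142 genus entries with reads in controls, 19 were seen in E53B only and 15 in E56A only, without drawing down to equal reads. A genus found in 1 mouse falls in 1 batch by necessity, and 20 entries were of this kind. Among the genera seen in E56A only, *Clostridium_T*, UBA11490 and *Faecalibaculum* had 26, 24 and 17 reads over 3 mice each, and the others had reads in 2 mice or 1. *Dubosiella*, an Erysipelotrichaceae genus of the mouse gut, had 10, 14, 14, 4 and 5 reads in E53B mice 36 to 40 and 0 reads in every E56A mouse, 0 of 247101 reads in all. It was the only genus with over 3 reads in all mice of one batch and none in the other. Its mean share of 0.0214% was at least 3.44-fold higher than the limit of 3 reads per library in E56A. *Eubacterium_G*, a Lachnospirales genus, had 0, 17, 42, 33 and 9 reads in E53B mice 36 to 40 and also 0 in all E56A mice. It was picked out after the read numbers had been looked at. Both were too rare for the main test, and no p is given for a genus named because one batch had 0 reads. *Akkermansia* had 442 reads in mouse 41, 0.992% of its total, and 2 to 7 in each of the other 9 mice.

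**Figure D4:**
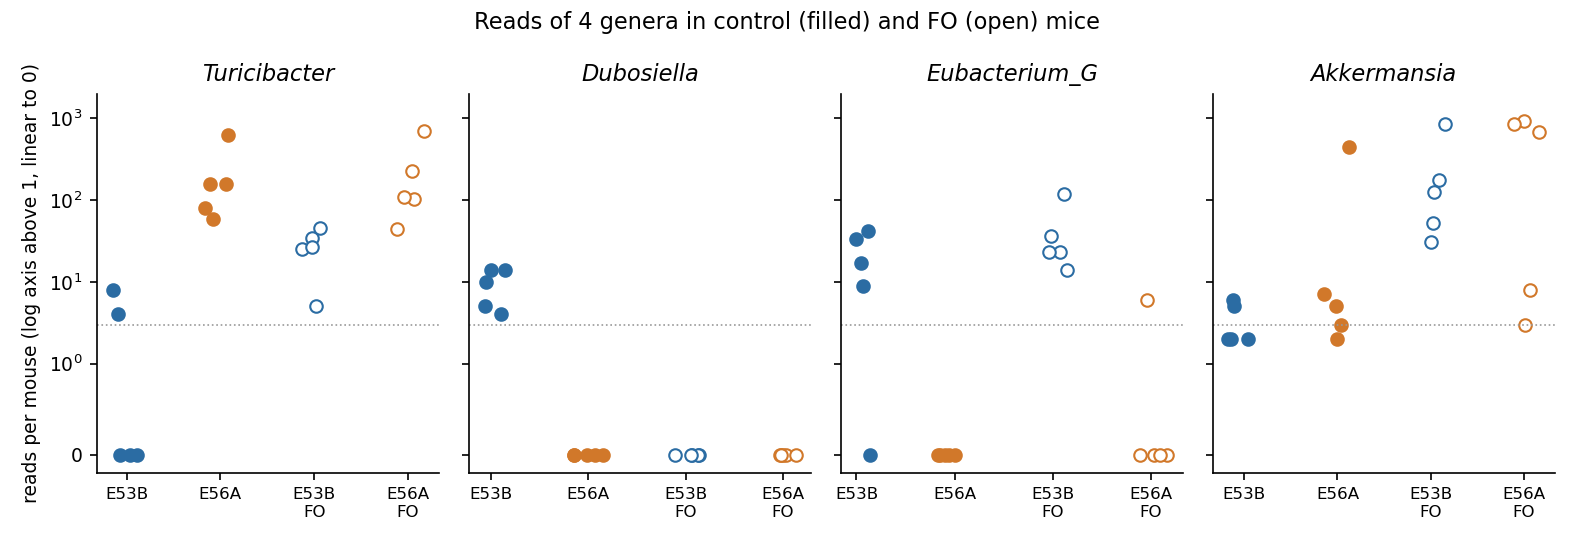
Reads per mouse of 4 genera (log axis above 1, linear down to 0) in control (filled) and FO (open) mice of both batches, 5 mice each, with a dotted line at 3 reads. *Turicibacter* reads are at most 8 in E53B controls and at least 58 in E56A controls, and *Eubacterium_G* was seen in 4 of 5 E53B controls and in no E56A control.

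Both batches carried the same 2 named species of *Bacteroides*, in different proportions. *B. rodentium* and *B. acidifaciens* are both common in mice and degrade polysaccharides. *B. rodentium* held 1.55%, 2.24%, 1.14%, 1.92% and 2.54% of reads in E53B mice 36 to 40, and 11.7%, 4.7%, 2.74%, 1.98% and 7.29% in E56A mice 41, 47, 48, 49 and 50. It was higher in E56A, with a log2 difference of 2.01 ± 0.49 (SE; edgeR adjusted p = 0.042), 1 of 2 calls among 63 species entries (3.17%), the other being the *Turicibacter* entry. Of 92 species entries averaging 0.01% or more, 6 did not overlap between batches (6.52%), 4 lower in E56A (4.35%) and 2 higher (2.17%), and *B. rodentium* overlapped. This call was lost without TMM scaling (adjusted p = 0.0893), on the centred log ratio, by exact permutation of shares, and in 8 of 10 fits that left out a mouse. It was kept in DESeq2 (adjusted p = 0.00437) and in edgeR with no filter (0.0011), with a minimum of 10 reads in 5 samples (0.0446) and with all 20 samples (0.0291).

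The species make-up of the genus was tested separately, as a share that the rest of the community does not enter. *B. rodentium* made up 40.4%, 59.2%, 34.8%, 46.7% and 60.1% of Bacteroides_H reads in E53B mice 36 to 40 and 65.6%, 74.1%, 71.5%, 70.6% and 83.3% in E56A mice 41, 47, 48, 49 and 50. The groups did not overlap (48.2% ± 11.2 against 73% ± 6.52; difference 24.8 percentage points, exact permutation p = 0.00794, adjusted p = 0.0476 over the 6 genera that could be tested). It was the only one of the 6 called (16.7%). *B. acidifaciens* itself held 1.3% ± 0.259 of reads in E53B and 1.5% ± 1.57 in E56A (edgeR adjusted p = 0.574). The make-up call was lost when mouse 47, 48, 49 or 50 was left out (adjusted p from 0.0952 to 0.143, exact permutation), while the difference stayed between 21.4 and 27.7 percentage points. The other 5, *Duncaniella*, *Muribaculum*, CAG-485, CAG-95 and *Alistipes_A_871400*, had adjusted p from 0.357 to 0.849 (exact permutation). With rarer genera admitted, *Lawsonibacter* also passed: sp000492175 made up 85.1% ± 2.62 of its reads in E53B and 71.8% ± 3.98 in E56A (exact permutation adjusted p = 0.0317).

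As a whole, Bacteroides_H held 3.29% to 4.23% of reads in E53B and 2.8% to 17.8% in E56A. Its log2 difference of 1.42 ± 0.50 (SE) did not pass in edgeR (adjusted p = 0.143) and passed in DESeq2 (adjusted p = 0.0385).

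**Figure D5:**
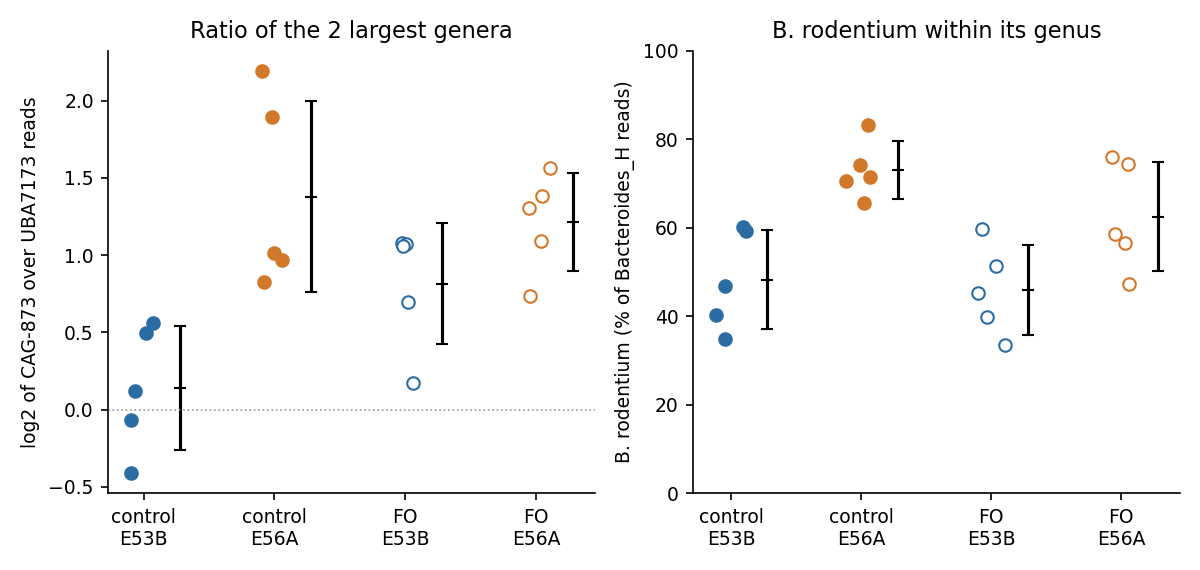
Left, log2 ratio of CAG-873 to UBA7173 reads; right, *B. rodentium* as a percentage of Bacteroides_H reads, in control (filled) and FO (open) mice, with the mean and SD of 5 mice beside the points. In controls neither measure overlaps between batches, with *B. rodentium* at most 60.1% in E53B and at least 65.6% in E56A; in FO mice both overlap.

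Groups of related genera were then described by counts. Over all 51 genera tested, 25 had a fitted difference above 0 and 26 below, with a median of -0.19 on the log2 scale. Without TMM scaling the median was -0.30, in DESeq2 it was -0.01, and with 1 mouse left out it ran from -0.20 to 0.19, above 0 without mouse 36, 37, 38, 41 or 49. The sign of small fitted differences and of the list medians below is therefore not settled. Of 13 Lachnospirales tested, 5 were fitted higher and 8 lower in E56A (median -0.47), and none was called. Of 15 Oscillospirales, 5 were fitted higher and 10 lower (median -0.39), and none was called. The 8 Muribaculaceae had a median of 0.31 and the 3 other Bacteroidales of 0.68, with none called. By mean share only 3 of the 8 Muribaculaceae were above E53B in E56A, and the family held 79.1% and 78.6% (exact permutation p = 0.937). Of 3 tested Bacilli (median 1.77) and of 3 tested genera known to differ between colonies (median -0.59), *Turicibacter* was the single call (1.96% of all genera tested), and as a genus bound to differ it counts for neither list.

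The summed Lachnospirales share was 8.43% ± 0.925 in E53B and 5.76% ± 2.74 in E56A (SD, n = 5; exact permutation p = 0.0556), and that of Oscillospirales 4.53% ± 0.757 and 2.86% ± 1.9 (p = 0.127). Within them, CAG-95 ran from 1.94% to 3.74% in E53B and from 0.489% to 1.91% in E56A, without overlap (edgeR log2 -0.85 ± 0.37, adjusted p = 0.243). *Dysosmobacter*, a genus with a butyrate-producing type species, ran from 1.26% to 2.4% and from 0.156% to 1.45% (edgeR log2 -1.10 ± 0.37, adjusted p = 0.143). Christensenellales were level, at 1.04% in both batches.

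The listed genera with cultured butyrate producers numbered 3 tested and none called (median -1.04), and the summed share of all 11 with reads, which was not tested, ran from 0.631% to 1.39% in E53B and from 0.197% to 0.595% in E56A, without overlap, as was so for 7.89% of single genus entries. *Dysosmobacter* is not in that list. *Kineothrix*, the largest part of the sum, overlapped between batches, at 0.556% ± 0.346 in E53B and 0.226% ± 0.084 in E56A (SD, n = 5). *Bilophila*, the only Desulfobacterota detected, held 0.651% ± 0.192 and 0.43% ± 0.308. *Mucispirillum* held 0.206% ± 0.0618 and 0.126% ± 0.0965. Of Clostridiaceae and Peptostreptococcaceae only 1 entry had reads, in E56A alone, with a mean share of 0.0105%. No entry of the tables was named for plastids or mitochondria, which would mark food or host DNA.

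Variation among the mice of a batch was described genus by genus. Over 30 genera averaging 0.1% or more, the median SD of log2 shares was 0.33 in E53B and 0.97 in E56A, and 27 of the 30 varied more in E56A. Without mice 41 and 50, chosen after they were seen to stand apart, the median in E56A was 0.54 and 18 of 30 varied more than in E53B.

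Mouse 50 had few Clostridia. Its Firmicutes_A share was 2.95%, against 7.95% to 15.8% in the other controls. UBA3282 held 0.169% (95% Wilson interval 0.138% to 0.207%) in this mouse and 1.27% to 3.64% in the others, and *Dysosmobacter* 0.156% against at least 0.439%. Mouse 47 was second lowest for Firmicutes_A.

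Mouse 41 differed in another way. Its Muribaculaceae share of 65.2% was the lowest, and its Bacteroides_H share of 17.8% the highest. *Turicibacter* and *Akkermansia* had their highest shares there, and Muribaculaceae reads without a genus held 4.44%, against 1.08% to 1.59% in the other mice. Whether housing differed for this mouse was not tested, because the labels name no cage.

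The batch differences were then looked at in the FO mice, which are other animals of the same batches. Mice were co-housed and the labels name no cage, so FO mice cannot be taken as independent of the controls. The R2 of batch among FO mice was 0.21 (Bray-Curtis distances, exact permutation p = 0.0238, n = 5 per batch). *Turicibacter* had 5, 25, 34, 45 and 27 reads in FO mice 31 to 35 of E53B and 225, 702, 103, 110 and 44 in FO mice 42 to 46 of E56A. Their log2 difference of 3.39 ± 0.87 (SE) fell just short of the threshold (edgeR adjusted p = 0.0508; 0.000767 in DESeq2), and passed in 2 of 10 fits that left out an FO mouse, without mouse 45 (edgeR adjusted p = 0.038) or mouse 46 (0.0252). The test of whether its batch difference was unequal in control and FO mice did not pass either (interaction log2 -3.51 ± 1.36, edgeR adjusted p = 0.274).

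*Eubacterium_G* had 14 to 118 reads in all 5 FO mice of E53B, and in E56A 6 reads in mouse 45 and 0 in the other 4. It was 1 of 2 genera called between batches in FO mice, of 72 tested in edgeR (2.78%), but it entered that test through E53B, where it was high, so the call is no support beyond the reads. An unadjusted p under 0.05 was reached by 11 of the 72 (15.3%). *Dubosiella* had 0 reads in all 10 FO mice. The *B. rodentium* share of its genus was 33.4% to 59.8% in FO mice of E53B and 47.2% to 75.9% in those of E56A (difference 16.6 percentage points, exact permutation p = 0.0635). The log2 ratio of CAG-873 to UBA7173 differed by 0.40 (exact permutation p = 0.111). UBA7173 itself overlapped, at 10.3% to 17.2% in FO mice of E53B and 8.75% to 22.3% in those of E56A. Its log2 difference in FO mice was 0.21 ± 0.36 (SE; edgeR adjusted p = 0.849), opposite in sign to the -0.42 of controls. Of the 9 genera with an unadjusted p under 0.05 in controls, 7 had the same sign in FO mice, beside 31 of all 49 genera tested in both. *Turicibacter*, which was bound to differ in controls, is among the 7. CAG-95 and *Kineothrix* had the opposite sign.

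The other genus called in FO mice was CAG-632 of Lachnospirales (log2 2.60 ± 0.54, edgeR adjusted p = 0.0324). Each of these calls held in 3 of the 10 fits that left out an FO mouse. In controls its log2 difference was -0.32 ± 0.57 (adjusted p = 0.733), with shares of 0.122% to 0.296% in E53B and 0.0091% to 0.337% in E56A. It was the only genus whose batch difference itself differed between control and FO mice, 1 of 78 tested (1.28%, with 5, or 6.41%, at an unadjusted p under 0.05; interaction log2 2.94 ± 0.73, edgeR adjusted p = 0.0487). That call was lost when any 1 of the 20 mice was left out (adjusted p from 0.0596 to 0.457), and it was kept in DESeq2 (adjusted p = 0.0207).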

How the data were processed

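Fecal DNA was extracted with a stool kit, and paired MiSeq reads of the amplified V4 region were obtained. According to the methods, the authors trimmed, merged, quality filtered and chimera-checked reads in QIIME2, grouped them into operational taxonomic units and classified these against Greengenes2. The submitters' processing notes name bcl2fastq 2.2 and cutadapt. The deposited values are raw read counts per taxon in 6 tables from phylum to species, whose totals agree in every mouse. Only 12 of 1156 counts above 0 in the control species table equal 1, so no richness estimator based on single counts was used.

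Here, genera, families and species were tested with edgeR 4.0.16 (TMM, filterByExpr, quasi-likelihood F-test) on R 4.3.3, adjusted by Benjamini-Hochberg over all entries tested at a 5% rate. DESeq2 1.42.0 and limma 3.58.1 were alternatives. Phyla, orders and make-up within genera (genera of at least 0.5% mean share, 20 reads in every mouse and 2 entries of at least 5%) were tested by exact permutation over all 252 splits (Python 3.11.15, scipy 1.17.1). Phyla and orders needed a mean share of 0.01%. Observed entries and evenness are means of 100 draws. Scripts were tested on simulated data. Named taxa were phyla of at least 0.1%, the top 10 families, 15 genera and 12 species entries, those past the threshold (up to 12 in each direction), those with over 3 reads in all mice of one batch and 0 in the other, and listed genera of at least 0.1% in a batch; further names were added after their values were seen. Members and lists were chosen with earlier results of these data known.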

Additional observations from a re-analysis of the deposited data

Results flagged for a closer look

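A mouse far from the other 4 of its batch was looked for in 81 sets of 5 values, where chance marks about 1 in 20. There were 6 such cases, 5 of them in mouse 41 and all in E56A, a number not far above that rate. The cases are not independent, since a genus and its phylum could both be marked. The measure is the gap to the nearest mouse divided by the range of the batch and exceeded Dixon's 95% critical value in each case. In mouse 41 it was 0.993 for *Akkermansia* and for its phylum Verrucomicrobiota, 0.889 for *Turicibacter*, 0.852 for Firmicutes_D, the phylum of *Turicibacter*, and 0.889 for Muribaculaceae reads without a genus. Mouse 41 had 0.992% *Akkermansia*, against at most 0.0122% in the others of its batch. In mouse 50 the gap was 0.765 for CAG-485, a Muribaculaceae genus, at 3.3% against 1.57% to 1.98%.

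The batch difference of CAG-632 passed the test of unequal size in control and FO mice, with an interaction of 2.94 on the log2 scale (edgeR adjusted p = 0.0487). The call was lost without TMM scaling (adjusted p = 0.377) and in all 20 fits that left out 1 mouse, and was kept in DESeq2 (adjusted p = 0.0207). Its mean share was 0.207% and 0.166% in E53B and E56A controls, and 0.0524% and 0.245% in FO mice of these batches.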

How the results depend on the processing

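No paired analysis was possible because the batches share no mouse numbers. The cause of the changes below was not tested unless fewer samples or other entries entered. R2 of batch, 0.398, was 0.16 with families, 0.299 with entries outside Muribaculaceae and 0.21 with Clostridia. The difference in centroid distance was 0.0342 with Jaccard distances, -0.0195 without mice 41 and 50, and from 0.0305 to 0.0825 with 1 mouse left out. Calls among genera, 1 in edgeR, numbered 3 in DESeq2, 2 with all 20 samples in the fit, 4 with no filter and 0 by exact permutation of shares, and 1 to 2 with a mouse left out. Calls among families, also 1, numbered 2 in DESeq2, 3 with all 20 samples and 0 by exact permutation, and 1 to 2 with a mouse left out. Calls among species, 2 in edgeR, numbered 1 on the centred log ratio with a pseudocount of 0.5 and 1 with a pseudocount of 1, 1 without TMM, 3 with all 20 samples, 7 with no filter and 0 by exact permutation, and 1 to 2 with a mouse left out. *Turicibacter* passed under every other setting tried for genera, its exact permutation adjusted p being 0.101. As a genus bound to differ, its repeated calls add nothing to the reads given above. In FO mice the 2 genera called became 6 in DESeq2 and 0 without TMM, and 0 to 4 with a mouse left out. The single interaction became 0 without TMM and 0 with any mouse left out. Phyla called numbered 2 on the centred log ratio, and 0 to 2 with a mouse left out. Entries of at least 0.1% in every mouse were 23 species and 17 genera. Make-up calls numbered 2 with genera of at least 0.1%, and 0 to 2 with a mouse left out.

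With 1 mouse left out the Shannon difference ran from -0.282 to -0.0753, that of evenness from -0.0504 to -0.0137, and that of total reads from 4624 to 9554. Genera near 0 turned sign with the scaling, none with a passing test. *Duncaniella*, fitted at 0.45, was -0.0172 without TMM and -0.0677 percentage points in shares, and from -0.14 to 0.66 with a mouse left out. *Paramuribaculum*, fitted at 0.07, was -0.0474 and -0.0875 on the centred log ratio with pseudocounts of 0.5 and 1, -0.30 without TMM, -0.35 percentage points in shares, and from -0.28 to 0.31 with a mouse left out. *Muribaculum*, fitted at 0.17, was -0.0275 on the centred log ratio with a pseudocount of 1, -0.29 without TMM, -0.307 percentage points in shares, and from -0.35 to 0.37 with a mouse left out. Taxa below 3 reads in a mouse could not be followed at these depths.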
